A study of Homo sapiens with 16 samples.

Results

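The genes described here encode the nuclear-encoded subunits of the mitochondrial respiratory chain and of ATP synthase, measured in BT474 breast tumours with and without knockdown of SHP2. Genes were taken by symbol (NDUFA, NDUFB, NDUFC, NDUFS or NDUFV with a number, SDHA to SDHD, and symbols that start with UQCR, COX4 to COX8 or ATP5), without assembly factors and pseudogenes. Of 86 protein-coding genes with such a symbol, 78 had an array feature (transcript cluster) listed with that symbol alone, out of 18377 genes measured in this way. They comprise 33 subunits of complex I, 3 of complex II, 7 of complex III, 17 of complex IV and 18 of ATP synthase. The ATP synthase group includes the inhibitor ATP5IF1 and the paralogue ATP5MGL. The clusters of ATP5F1E, ATP5MF-PTCD1, NDUFC2, NDUFS5 and UQCRHL are shared with other symbols, and the remaining genes were not analysed here. No filter on low values was applied, so all 78 members were tested.

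The BT474 line comes from a human luminal breast cancer in which ERBB2 (HER2) is amplified. Its cells carried a lentiviral vector that expresses a microRNA-type hairpin when doxycycline is given, and they formed tumours in the mammary gland of immunodeficient hosts, injected into the fat pad. The vector held 1 of 2 hairpins against SHP2, the tyrosine phosphatase encoded by PTPN11 that links receptor tyrosine kinases to RAS and ERK signalling, or a control hairpin. There were 7 tumours with SHP2 miR1, 3 with SHP2 miR2 and 6 with the control (CTRL miR). All mice, those with control tumours included, had doxycycline in the drinking water (2 g per L) for 30 days after tumours had formed. Total RNA of each tumour (100 ng) was hybridised to a human gene array, 1 array for each of the 16 tumours. The labels name neither a clone nor a mouse strain and do not tie tumours to animals, so the p-values measure the spread between these tumours.

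The respiratory chain passes electrons from NADH (complex I) and succinate (complex II) through ubiquinone to complex III, on to cytochrome c and then to oxygen at complex IV. Complexes I, III and IV pump protons across the inner mitochondrial membrane, and ATP synthase lets them return and makes ATP. A few core subunits are encoded by mitochondrial DNA, and all others, including every gene described here, come from the nucleus and share regulators such as NRF1, the GABP (ETS) factors and YY1. Breast epithelium and most breast cancers express the widely used subunits, while some complex IV isoforms belong mainly to muscle, lung or testis.

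PTPN11 checked the labels. It had a log2 signal of 6.59 to 7.18 with a median of 6.97 in the miR1 tumours, 6.52, 6.53 and 6.34 in the miR2 tumours, and 8.23 to 8.61 with a median of 8.39 in the controls. The 9 luminal markers had a mean signal of 9.79 to 10.03 with miR1, 9.76 to 10.02 with miR2 and 9.30 to 9.89 in the controls. Some arrays stood apart. IRS4, an insulin receptor adaptor, had at most 3.91 with either SHP2 hairpin, and in the controls it had 3.16 and 3.77 in tumours 2 and 5 but 7.46, 8.29, 7.14 and 7.54 in tumours 1, 3, 4 and 6. The arrays also formed 2 sets by the mean of 5 noncoding RNAs, which was 8.19 to 8.39 in set A (miR1 tumours 1 to 4 and controls 1 to 3) and 6.81 to 7.21 in set B (the other 9 arrays, with all 3 miR2 tumours). Array values were compressed in miR2 tumours 1 and 3, whose SD over all clusters was 1.89 in each against 1.95 to 2.07 elsewhere. Values are deposited log2 signals, and each change is a log2 difference given with its standard error (SE). A member rose or fell where limma gave an adjusted p below 0.05, adjusted by Benjamini-Hochberg over all 18377 genes.

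Most members were bright. Their mean log2 signal over the 16 arrays ran from 3.46 (COX7B2) to 10.9 (ATP5F1B), with a median of 7.55, against a median of 5.81 over all genes. Of the 78 members, 59 (75.6%) lay in the brightest 1 in 3 of all genes, with a mean of at least 6.71. The signals depend on the probes as well as on the transcript, so levels of different members are not ranked here.

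With SHP2 miR1, almost no member passed the threshold against the controls. Of the 78, 0 rose (1.38% of all genes did) and 1 fell, ATP5MG (3.38% of all genes did). The members' median log2 difference was -0.029, against 0.018 over all genes, and 30 members had a positive and 48 a negative difference. The sign of that median changed to 0.010 when each array was centred on its own median. At an unadjusted p below 0.05, 3 members were higher and 14 lower. The share of all genes at this unadjusted cut was not counted, here or below. Without control tumour 2 the count of falls was 6 (7.69%, against 6.62% of all genes), and without control tumour 5 it was 7 (8.97%, against 7.17%).

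With SHP2 miR2, 28 of 78 members fell (35.9%), against 18.2% of all genes. COX7A1, the muscle isoform of a complex IV subunit, was the 1 member that rose, against 11.8% of all genes. The members' median was -0.27, against 0.023 over all genes, and 69 of 78 differences were negative. Falls were counted in every complex: 12 of 33 in complex I, 3 of 3 in complex II, 3 of 7 in complex III, 5 of 17 in complex IV and 5 of 18 in ATP synthase. In complex II the falls of SDHC and SDHD rest on the brighter of 2 clusters, and neither passed with the mean of both. Cluster numbers run chromosome by chromosome, and by number these brighter clusters lie off the genes' own chromosomes. In bulk tumour RNA, fewer cells of a type and less RNA per cell cannot be told apart.

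How many members fell with miR2 depended on the array values and on single tumours. After quantile normalization 13 of 78 fell (16.7%), against 15.2% of all genes, with a members' median of -0.14 and 60 negative differences. All 13 are among the 28: ATP5F1B, ATP5MG, ATP5MK, COX6A1, COX7B, NDUFA11, NDUFA2, NDUFA9, NDUFB10, NDUFB6, SDHD, UQCRC2 and UQCRH. Of these, ATP5MK and SDHD are counted by brighter clusters that by number lie off the genes' own chromosomes. Within array set B alone (3 miR2 tumours and controls 4 to 6) 14 fell (17.9%, against 9.98% of all genes), of which 13 are among the 28. Without miR2 tumour 1 the count was 14 (17.9%, against 11.2%), and without miR2 tumour 3 it was 8 (10.3%, against 8.76%). With control tumours 2 and 5 as the only controls it was 1 (1.28%, against 2.98%), ATP5MG, with 14 lower at an unadjusted p below 0.05 and a members' median of -0.14.

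**Figure D1:**
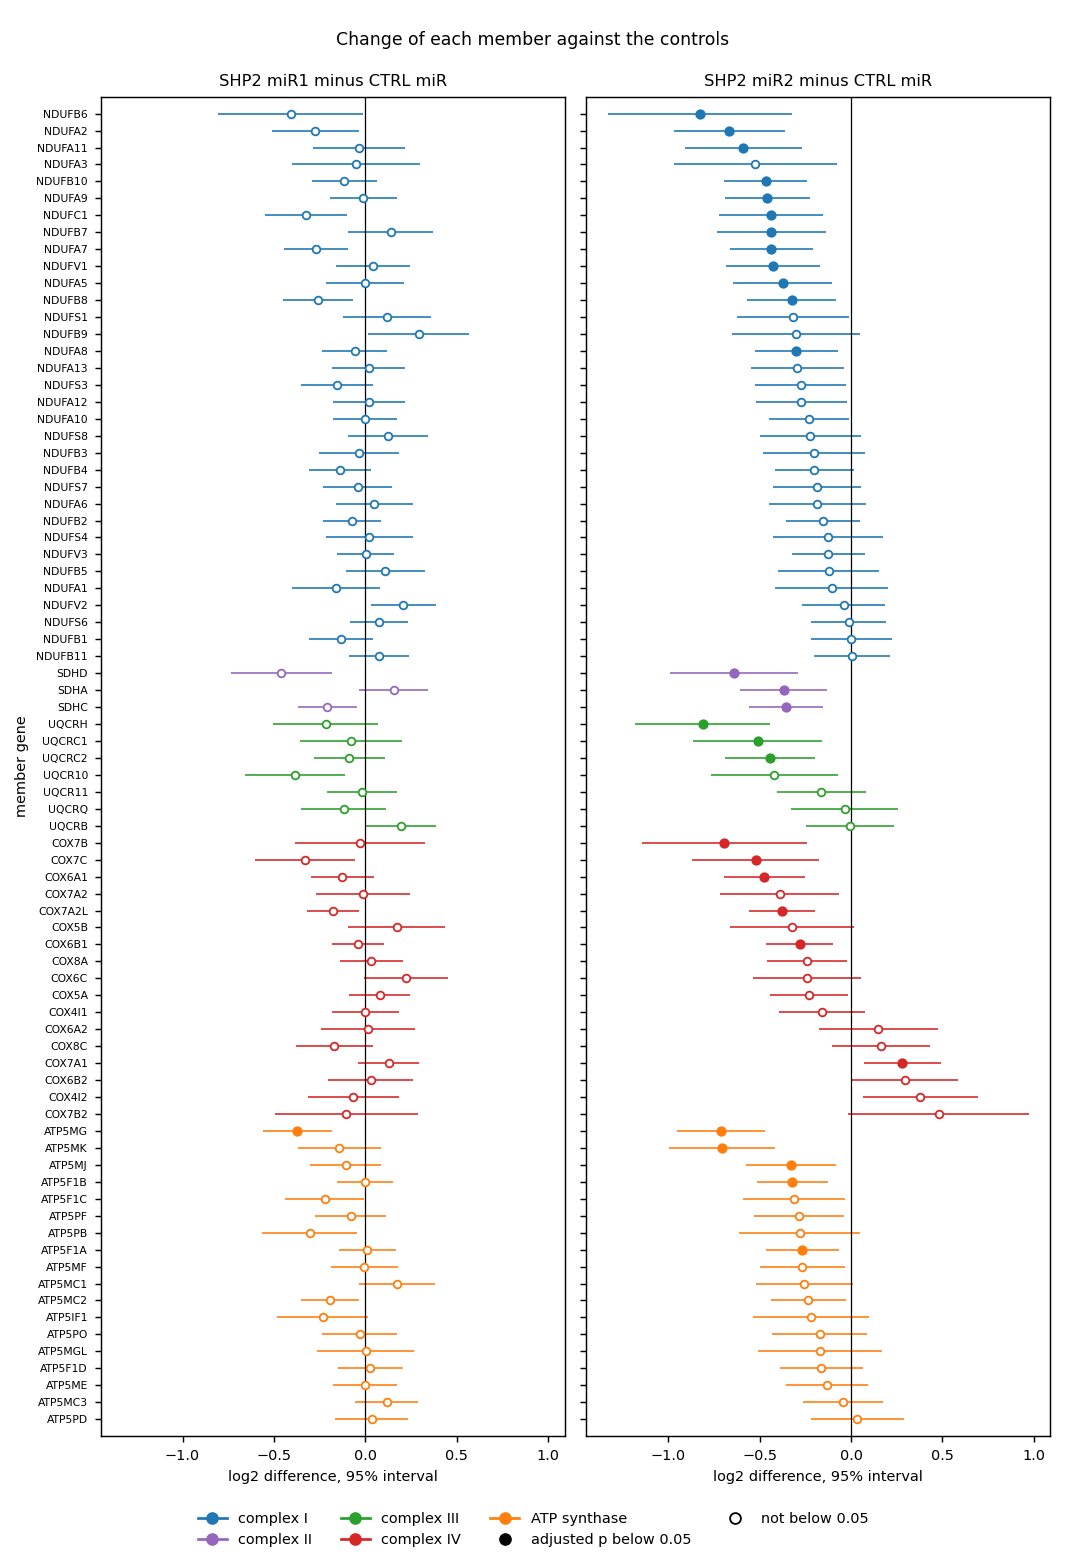
Log2 difference of each of the 78 members against the controls, SHP2 miR1 on the left and SHP2 miR2 on the right. Points are limma estimates, lines are 95% intervals, colours are complexes, and filled points have an adjusted p below 0.05. For miR1 the 1 filled point is ATP5MG, and for miR2 28 points are filled left of 0 and 1 (COX7A1) right of 0.

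The tumours of a group were not alike. The median of the members' deviations from their own means over all arrays was -0.22, -0.093 and -0.31 in miR2 tumours 1, 2 and 3. It was between -0.054 and 0.097 in the miR1 tumours and between -0.060 and 0.17 in the controls, where tumours 2 (0.0089) and 5 (-0.060) were the lowest. In 31 of 78 members control tumours 1, 3, 4 and 6 all lay above controls 2 and 5 (19.0% of all genes did), and in 0 members all lay below (16.6% of all genes did). In 13 members, the highest miR2 tumour lay below every other tumour (8.10% of all genes did).

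**Figure D2:**
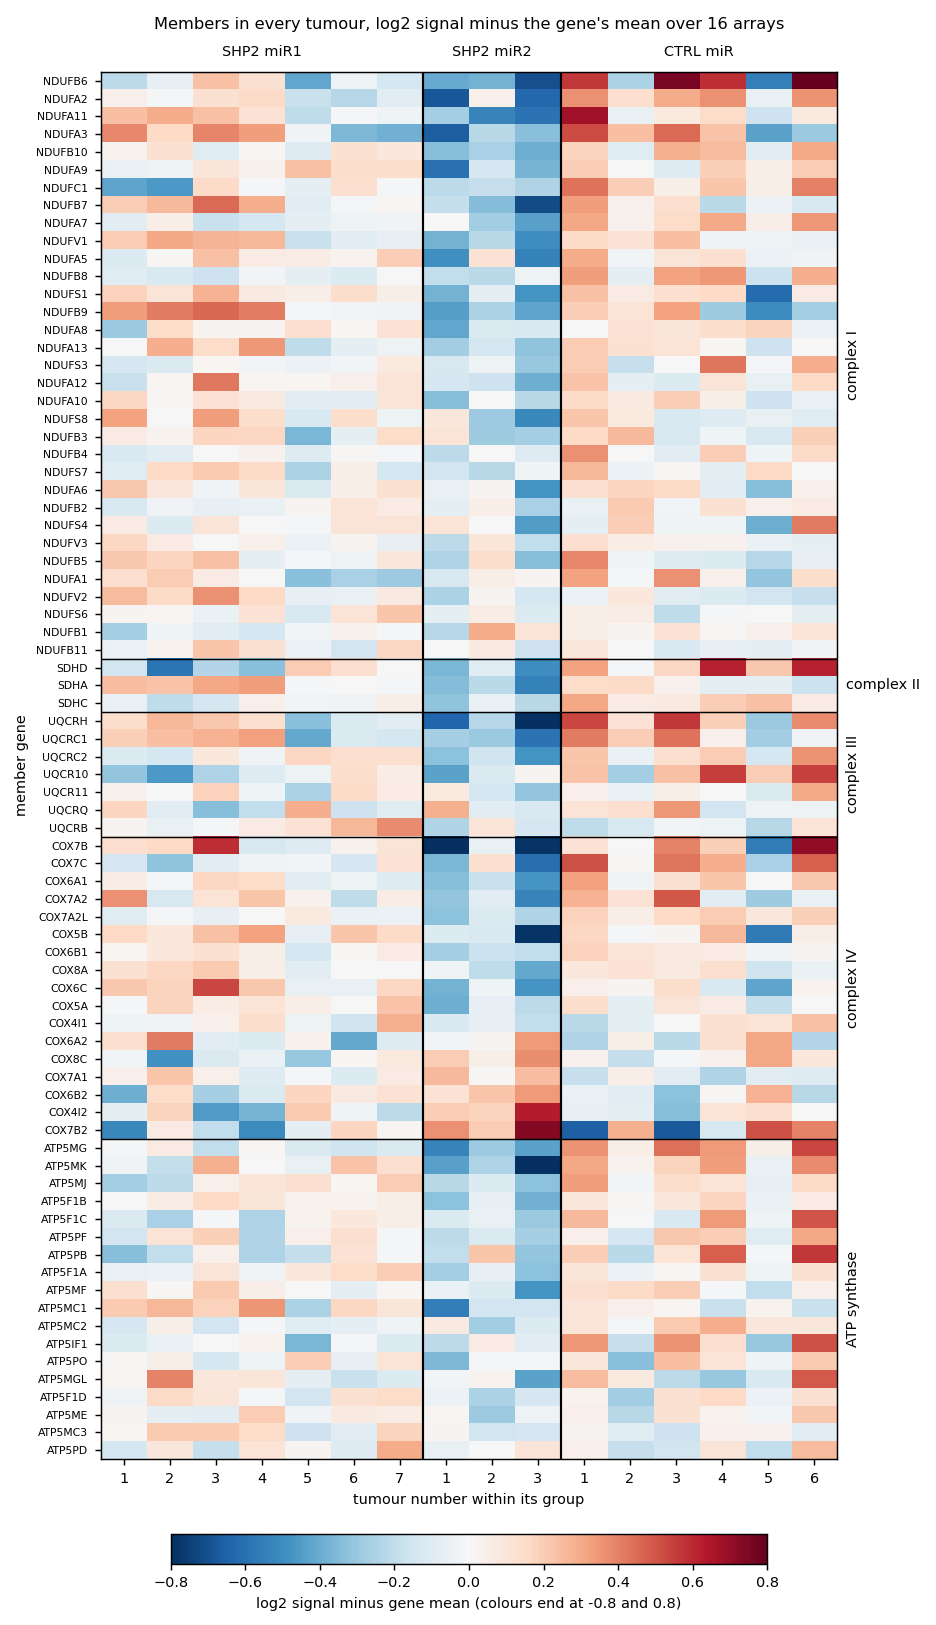
Log2 signal of each member minus its mean over the 16 arrays, with members in rows by complex and tumours in columns. Red is above and blue below the gene's mean. Columns of miR2 tumours 1 and 3 are mostly blue, and control tumours 1, 3, 4 and 6 are mostly red.

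Upstream sequences are shown for 5 members as examples of NRF1 and ETS letters. They were picked for these letters, so they do not tie the letters to the falls. The 5 are the ones with the largest fall, by the clusters used, among 7 members. These 7 were lower with miR2 than in both other groups and carry NRF1 or ETS letters in the 250 bases before the start. For ATP5MK and COX6A1 the fall is that of the brighter of 2 clusters. By number, that of COX6A1 lies in the run of its own chromosome 12. That of ATP5MK lies past the clusters of chromosome 7, so its fall is not that of the chromosome 10 locus printed here. The dimmer ATP5MK cluster, with a difference of -0.38, lies between clusters of chromosomes 10 and 11. They come from RefSeq (GRCh38.p14), 5′ to 3′ on the strand of the gene, with matches on either strand in capitals. The ETS letters searched were CCGGAAG and the NRF1 letters GCATGCGC. UQCRH is at chr1:46303448-46303697 on the plus strand, ATP5MK at chr10:103396476-103396725 on the minus strand, COX6A1 at chr12:120437863-120438112 on the plus strand, NDUFB7 at chr19:14572067-14572316 on the minus strand and NDUFA5 at chr7:123557819-123558068 on the minus strand.
UQCRH: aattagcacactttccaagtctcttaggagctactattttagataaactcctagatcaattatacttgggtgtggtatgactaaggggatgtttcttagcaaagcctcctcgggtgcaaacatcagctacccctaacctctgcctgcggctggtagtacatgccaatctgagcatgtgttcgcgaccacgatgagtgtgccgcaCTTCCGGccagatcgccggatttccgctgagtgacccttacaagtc
ATP5MK: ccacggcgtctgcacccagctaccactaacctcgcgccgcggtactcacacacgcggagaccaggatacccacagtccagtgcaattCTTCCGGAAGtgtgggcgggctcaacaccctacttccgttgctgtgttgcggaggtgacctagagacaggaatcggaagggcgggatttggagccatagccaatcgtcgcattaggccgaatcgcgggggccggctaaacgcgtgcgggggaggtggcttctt
COX6A1: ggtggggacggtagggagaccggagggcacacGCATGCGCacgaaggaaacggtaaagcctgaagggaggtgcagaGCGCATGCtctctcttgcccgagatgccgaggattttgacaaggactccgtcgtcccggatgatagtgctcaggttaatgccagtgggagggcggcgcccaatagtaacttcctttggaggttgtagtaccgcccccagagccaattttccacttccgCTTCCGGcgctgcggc
NDUFB7: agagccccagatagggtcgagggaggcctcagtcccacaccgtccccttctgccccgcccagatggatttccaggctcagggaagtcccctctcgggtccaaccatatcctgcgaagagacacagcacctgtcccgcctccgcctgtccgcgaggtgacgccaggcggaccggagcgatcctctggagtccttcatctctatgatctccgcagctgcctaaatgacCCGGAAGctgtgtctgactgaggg
NDUFA5: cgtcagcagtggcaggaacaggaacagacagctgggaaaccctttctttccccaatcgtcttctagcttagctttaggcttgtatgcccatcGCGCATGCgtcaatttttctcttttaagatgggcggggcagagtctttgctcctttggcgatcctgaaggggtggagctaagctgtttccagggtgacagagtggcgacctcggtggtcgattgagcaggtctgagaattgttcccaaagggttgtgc
UQCRH and NDUFB7 hold ETS letters at -46 and -24 from the start, and ATP5MK holds a palindrome that reads as ETS on both strands, at -163 and -160. COX6A1 holds NRF1 letters at -218 and -174 and ETS letters at -16, and NDUFA5 holds NRF1 letters at -158.

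Promoter windows (250 bases before to 50 after the start) were at hand for 66 of the 78 members and for 27305 genes. NRF1 letters stood in 19.7% of the members and 3.68% of all genes, ETS letters in 30.3% and 12.2%, and the YY1 letters AAGATGGC in 16.7% and 3.52%. The E-box CACGTG stood in 10.6% of the members and 8.77% of all genes. At least 1 of these motifs was found in 15 of the 26 members that fell with miR2 and have a window (57.7%), against 23 of the 40 others (57.5%). These matches describe the letters only. No binding was measured.

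Complex I oxidises NADH and feeds ubiquinone. With miR2, 1 of its 6 measured core subunits fell and 11 of its 27 accessory subunits, with medians of -0.25 and -0.29. The core subunit was NDUFV1, which binds FMN and takes the electrons from NADH. Its log2 signal was 8.70, 8.86 and 8.58 in the miR2 tumours, 8.90 to 9.39 with a median of 9.28 in the miR1 tumours and 9.02 to 9.32 with a median of 9.12 in the controls. The highest miR2 tumour lay below every other tumour, and the change was -0.43 ± 0.12 (SE, limma adjusted p = 0.015). NDUFS1, the large iron-sulfur subunit, had a difference of -0.32 that did not pass (adjusted p = 0.103).

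The largest fall among all members was that of NDUFB6, an accessory subunit of the membrane arm. Its signal was low, at 3.85, 3.87 and 3.55 in the miR2 tumours, 3.84 to 4.49 with a median of 4.19 in the miR1 tumours and 3.71 to 5.14 with a median of 4.83 in the controls. The control with the lowest value, tumour 5, lay below miR2 tumours 1 and 2, so the groups overlapped. The change with miR2 was -0.83 ± 0.24 (adjusted p = 0.0161), and against controls 2 and 5 alone it was -0.095 (adjusted p = 0.798).

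NDUFA2, an accessory subunit of the NADH-oxidising arm, had 6.27, 6.98 and 6.32 in the miR2 tumours, 6.71 to 7.10 with a median of 6.93 in the miR1 tumours and 6.88 to 7.31 with a median of 7.27 in the controls. Here miR2 tumour 2 lay among the miR1 and control tumours, while tumours 1 and 3 lay below them all. The change was -0.67 ± 0.15 (adjusted p = 0.00278). NDUFA11, an accessory subunit of the membrane arm, had 6.10, 5.84 and 5.78 in the miR2 tumours, 6.16 to 6.67 with a median of 6.49 in the miR1 tumours and 6.21 to 7.04 with a median of 6.45 in the controls. All 3 miR2 tumours lay below all others, and the change was -0.59 ± 0.15 (adjusted p = 0.0082).

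NDUFA9, which sits beside the quinone site, fell by 0.46 (adjusted p = 0.00553), and the accessory subunit NDUFB10 by 0.47 (adjusted p = 0.00417). In both, the highest miR2 tumour was below every other tumour. The other falls in complex I were those of NDUFA5, NDUFA7, NDUFA8, NDUFB7, NDUFB8 and NDUFC1, between -0.30 and -0.44. NDUFB11 and NDUFB1, both of the membrane arm, had differences of 0.0049 and 0.0011, and the core subunit NDUFV2 had -0.041. With miR1 none of the 33 passed, and the differences ran from -0.41 (NDUFB6) to 0.29 (NDUFB9).

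Complex II, succinate dehydrogenase, links the tricarboxylic acid cycle to the chain and is the only complex encoded wholly in the nucleus. All 3 measured subunits fell with miR2, SDHC and SDHD by the brighter of 2 clusters each, which by number lies off the gene's own chromosome. SDHA, the flavoprotein that oxidises succinate, had 10.14, 10.27 and 9.94 in the miR2 tumours, 10.48 to 10.82 with a median of 10.71 in the miR1 tumours and 10.32 to 10.64 with a median of 10.46 in the controls. All 3 miR2 tumours lay below all others, and the change was -0.37 ± 0.11 (adjusted p = 0.0219). SDHC and SDHD, the membrane anchors, changed by -0.36 ± 0.097 (adjusted p = 0.0111) and -0.64 ± 0.17 (adjusted p = 0.00875).

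SDHD had 7.36, 7.62 and 7.22 in the miR2 tumours, 7.13 to 7.92 with a median of 7.57 in the miR1 tumours and 7.70 to 8.34 with a median of 7.99 in the controls. Tumour 2 of miR2 lay among the miR1 tumours, and all 3 miR2 tumours lay below every control. The anchors are less certain than SDHA, since each had a second cluster. The other SDHC cluster had a difference of -0.11, and the other SDHD cluster one of 0.033. With the mean of both clusters neither passed (SDHC -0.23, adjusted p = 0.0922; SDHD -0.30, adjusted p = 0.0771). After quantile normalization SDHD passed, while SDHA (-0.28, adjusted p = 0.0777) and SDHC (-0.22, adjusted p = 0.0755) did not. Processed pseudogenes are known for many of these subunits. By number, the brighter SDHC cluster lies between those of chromosomes 17 and 18, and the brighter SDHD cluster among those of chromosome 1. The dimmer clusters lie in the runs of the genes' own chromosomes, 1 for SDHC and 11 for SDHD. By this order the falls counted for SDHC and SDHD are not those of the genes' own loci. Whether the brighter clusters measure pseudogene copies was not tested. With miR1, SDHD had -0.46 ± 0.13 (adjusted p = 0.0501) and SDHA 0.16 ± 0.090 (adjusted p = 0.386), and neither passed.

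Complex III moves electrons from ubiquinol to cytochrome c. UQCRH, the hinge protein at the cytochrome c1 side, had 5.999, 6.40 and 5.80 in the miR2 tumours, 6.30 to 6.90 with a median of 6.76 in the miR1 tumours and 6.33 to 7.20 with a median of 6.92 in the controls. Tumours 1 and 3 of miR2 lay below all others, while tumour 2 lay above the lowest miR1 and control tumours. The change was -0.81 ± 0.18 (adjusted p = 0.00267). UQCRC1 and UQCRC2, the core proteins on the matrix side, fell by 0.51 (adjusted p = 0.0296) and 0.44 (adjusted p = 0.0098). For UQCRC2 all miR2 tumours lay below all others, and for UQCRC1 the groups overlapped.

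UQCR10 had -0.42 ± 0.17 with miR2 and -0.39 ± 0.13 with miR1, and neither passed (adjusted p = 0.0602 and 0.0996). The small subunits UQCRB, UQCRQ and UQCR11 had differences of -0.0053, -0.035 and -0.16 with miR2. Cytochrome c1 itself (CYC1), whose symbol lies outside the rule, fell with miR2 as well (-0.56 ± 0.16, adjusted p = 0.0133), with 8.05, 8.02 and 7.78 in the miR2 tumours, 8.21 to 8.89 with a median of 8.66 in the miR1 tumours and 8.15 to 8.79 with a median of 8.49 in the controls.

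Complex IV, cytochrome c oxidase, reduces oxygen to water. Of its 11 widely expressed subunits 5 fell with miR2 (median of all 11 -0.32). COX7B, a small membrane subunit, had 5.88, 6.63 and 5.91 in the miR2 tumours, 6.57 to 7.28 with a median of 6.79 in the miR1 tumours and 6.13 to 7.40 with a median of 6.85 in the controls. Tumours 1 and 3 of miR2 lay below all others, and tumour 2 lay among the miR1 tumours and above control tumour 5. The change was -0.69 ± 0.22 (adjusted p = 0.0227). COX6A1, the widely expressed form of subunit 6A, had 9.49, 9.66 and 9.36 in the miR2 tumours, 9.73 to 9.996 with a median of 9.83 in the miR1 tumours and 9.80 to 10.16 with a median of 9.9999 in the controls. All 3 miR2 tumours lay below all others, and the change was -0.47 ± 0.11 (adjusted p = 0.00326). A second, dimmer COX6A1 cluster had a smaller difference of -0.23 with miR2. With miR1 it had 0.11, against -0.12 for the cluster used. With the mean of both clusters COX6A1 still passed with miR2.

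COX6B1, which faces the intermembrane space, had 8.33, 8.43 and 8.40 in the miR2 tumours, 8.46 to 8.72 with a median of 8.64 in the miR1 tumours and 8.57 to 8.78 with a median of 8.67 in the controls. The change was small but the miR2 tumours again lay below all others (-0.28 ± 0.088, adjusted p = 0.0226). COX7C fell by 0.52 (adjusted p = 0.025), and COX7A2L, which joins complexes III and IV in supercomplexes, by 0.38 (adjusted p = 0.00378). COX4I1, the regulatory subunit used in most tissues, had -0.16 and did not pass (adjusted p = 0.278).

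The 6 tissue-restricted isoforms of complex IV differed in sign. All 6 had positive differences with miR2, between 0.15 and 0.48 with a median of 0.29, while their 6 widely expressed partners all had negative ones (after quantile normalization COX4I1 turned to 0.015). COX7A1, the heart and skeletal muscle partner of COX7A2, had 4.81, 4.56 and 4.80 in the miR2 tumours, 4.44 to 4.77 with a median of 4.59 in the miR1 tumours and 4.31 to 4.61 with a median of 4.45 in the controls. The change was 0.28 ± 0.10 (adjusted p = 0.0418), with miR2 tumours 1 and 3 above all others and tumour 2 among them. It no longer passed without control tumour 1, 3, 4 or 6, miR1 tumour 1, or miR2 tumour 1 or 3, or with the replicate number as a block. COX4I2, the lung form that is known to respond to low oxygen, had 4.83, 4.81 and 5.26 in the miR2 tumours, 4.18 to 4.84 with a median of 4.56 in the miR1 tumours and 4.29 to 4.76 with a median of 4.60 in the controls. Its difference of 0.38 ± 0.15 did not pass (adjusted p = 0.0623).

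COX7B2 and COX6B2, both testis forms, had 0.48 ± 0.24 and 0.29 ± 0.14. COX6A2 (heart and muscle) had 0.15 and COX8C (testis) 0.16, and none of these 4 passed (adjusted p between 0.112 and 0.464). All 6 isoforms were dim, with mean signals between 3.46 and 5.98, and dim genes as a whole had positive differences with miR2: in the dimmest 1 in 3 genes the median difference was 0.19 and 16.1% rose. After quantile normalization 5 of the 6 remained positive, COX8C had -0.00087 and COX7A1 no longer passed (0.12, adjusted p = 0.4). With a host marker score (21 fibroblast, endothelial and macrophage markers) as a covariate COX6A2 (-0.17), COX6B2 (-0.19), COX7B2 (-0.64) and COX8C (-0.020) were negative, and the partners COX7A2 (0.22) and COX7B (0.19) were positive. Against controls 2 and 5 alone COX6A2 had -0.064. Of the 10 skeletal muscle markers 2 rose with miR2 (MB 0.43 and MYL1 0.43) and none of the 3 oxidative muscle markers, against 11.8% of all genes. After quantile normalization 1 of the 10 rose. The mean signal of the 10 was 4.61 to 5.73 with miR1, 4.91 to 6.11 with miR2 and 4.64 to 4.996 in the controls. The array is human and the hosts were mice, so the muscle and host marker signals cannot be assigned to host or tumour cells. The part of muscle in the isoforms' values was not tested.

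ATP synthase turns the proton gradient into ATP. The subunits that fell with miR2 were 2 of 4 of the F1 head and central stalk, 3 of 5 of the small membrane subunits, 0 of 4 of the peripheral stalk and 0 of 3 of the c ring. ATP5MG, subunit g of the membrane part, which takes part in dimer formation, was the member with the smallest adjusted p. Its signal was 7.36, 7.60 and 7.46 in the miR2 tumours, 7.70 to 7.96 with a median of 7.78 in the miR1 tumours and 7.94 to 8.43 with a median of 8.24 in the controls. With miR2 all tumours lay below all others (-0.71 ± 0.11, adjusted p = 0.000266), and with miR1 the highest tumour just overlapped control tumours 2 and 5 (-0.37 ± 0.090, adjusted p = 0.0236).

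The miR2 call of ATP5MG held under every alternative listed with the processing that gave a miR2 value, except the host marker score as a covariate (-0.31, adjusted p = 0.47). It fell by 0.55 after quantile normalization (adjusted p = 0.00131), by 0.47 against controls 2 and 5 alone (adjusted p = 0.0499) and by 0.72 in array set B (adjusted p = 0.00749). Its fall with miR1 depended on single tumours: without control tumour 1, 3, 4 or 6 or miR1 tumour 3 the change was -0.32 to -0.36 and the adjusted p 0.0519 to 0.0811. Against controls 2 and 5 alone it was -0.13 with miR1 (adjusted p = 0.903), and with the host marker score as a covariate -0.23 (adjusted p = 0.143). The miR1 call was also lost within array set A or B alone and with the replicate number as a block.

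ATP5MK, another small subunit of the membrane part, had 8.12, 8.31 and 7.71 in the miR2 tumours, 8.36 to 8.84 with a median of 8.55 in the miR1 tumours and 8.49 to 8.93 with a median of 8.80 in the controls. All miR2 tumours lay below all others, and the change was -0.70 ± 0.14 (adjusted p = 0.00134). These values are those of the brighter ATP5MK cluster, and the second cluster had a smaller difference of -0.38. With the mean of both clusters ATP5MK still passed. By number the second cluster lies in the run of the gene's own chromosome 10, and the brighter one past the clusters of chromosome 7. ATP5F1B, the catalytic beta subunit, had 10.58, 10.84 and 10.52 in the miR2 tumours, 10.90 to 11.07 with a median of 10.95 in the miR1 tumours and 10.85 to 11.08 with a median of 10.98 in the controls, with the miR2 tumours below all others. The change was -0.32 ± 0.092 (adjusted p = 0.0146). ATP5F1A, the alpha subunit, changed by -0.27 ± 0.096 (adjusted p = 0.0421) and ATP5MJ by -0.33 ± 0.12 (adjusted p = 0.0407).

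ATP5PD of the peripheral stalk had a difference of 0.034 with miR2 (95% interval -0.22 to 0.29). The inhibitor ATP5IF1, which blocks the reverse reaction when the gradient fails, had -0.22 with miR2 and -0.23 with miR1, and neither passed (adjusted p = 0.263 and 0.317). The 3 c ring genes, which encode the same mature protein, had -0.26 (ATP5MC1), -0.23 (ATP5MC2) and -0.045 (ATP5MC3).

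**Figure D3:**
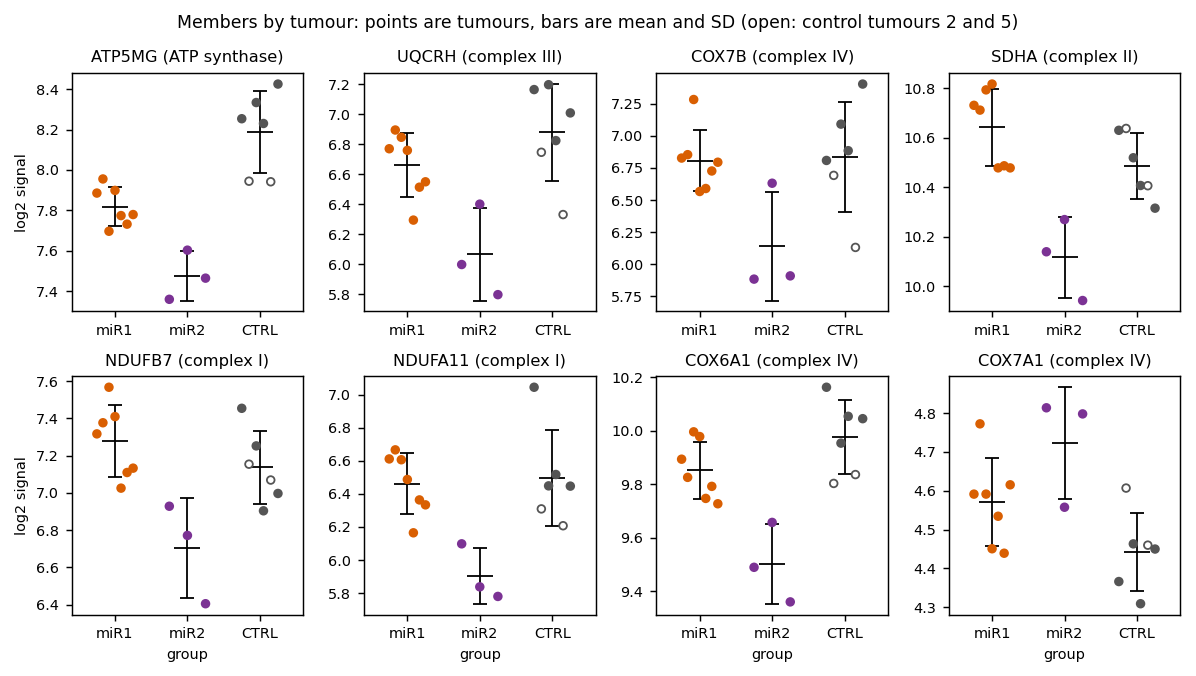
Log2 signal of 8 members in every tumour, by group (miR1, miR2, CTRL). Points are tumours, open points are control tumours 2 and 5, and bars are the mean and SD of the group. The 3 miR2 tumours lie below all others for ATP5MG, SDHA, NDUFA11 and COX6A1, and overlap other tumours for UQCRH, COX7B, NDUFB7 and COX7A1.

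The hairpins were also compared with each other. With miR1, 22 of 78 members were higher than with miR2 (28.2%), against 14.3% of all genes, and 1 was lower, COX4I2 (-0.44 ± 0.15, adjusted p = 0.0371), against 8.22% of all genes. COX4I2 no longer passed without miR1 tumour 1, 3, 4 or 7 or miR2 tumour 1 or 3. The members' median was 0.20, against -0.0042 over all genes. This comparison shares the miR2 tumours with the one above, and 16 members passed in both, which is 57.1% of the 28 and 72.7% of the 22. The largest differences were those of COX7B (0.66 ± 0.21, adjusted p = 0.0314), UQCRH (0.60 ± 0.17, adjusted p = 0.0203) and NDUFB9 (0.60 ± 0.16, adjusted p = 0.0157).

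The 6 members that passed here and not against the controls were ATP5MC1, COX5A, COX5B, COX6C, NDUFB9 and NDUFS1. NDUFB9, an accessory subunit of complex I, had 8.98 to 9.47 with a median of 9.35 in the miR1 tumours, 8.57, 8.76 and 8.59 in the miR2 tumours and 8.51 to 9.34 with a median of 8.93 in the controls. The miR1 tumours of array set A (1 to 4) were the highest of all, and control tumour 5 was the lowest. Within array set B alone (3 miR1 and 3 miR2 tumours) its difference was 0.35 (adjusted p = 0.0966), and the 1 member that passed (1.28%, against 3.86% of all genes) was NDUFA9 (0.54, adjusted p = 0.0351). After quantile normalization 7 of 78 were higher with miR1 (8.97%), against 9.64% of all genes. Without miR2 tumour 1 the count was 6 (7.69%, against 6.62%), and without miR2 tumour 3 it was 3 (3.85%, against 5.05%).

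The falls with miR2 ran with brightness. Genes were divided by mean signal into 3 equal classes. In the brightest class 31.6% of genes fell with miR2 and the median was -0.19, while 24 of the 59 members in it fell (40.7%) with a median of -0.29. In the middle class 18.3% of genes and 3 of 11 members fell. In the dimmest class 4.77% of genes and 1 of 8 members fell, NDUFB6. For miR1 against miR2, 29.7% of the brightest class and 19 of its 59 members (32.2%) were higher, with medians of 0.22 and 0.24. No test sets the members against other genes of like brightness.

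**Figure D4:**
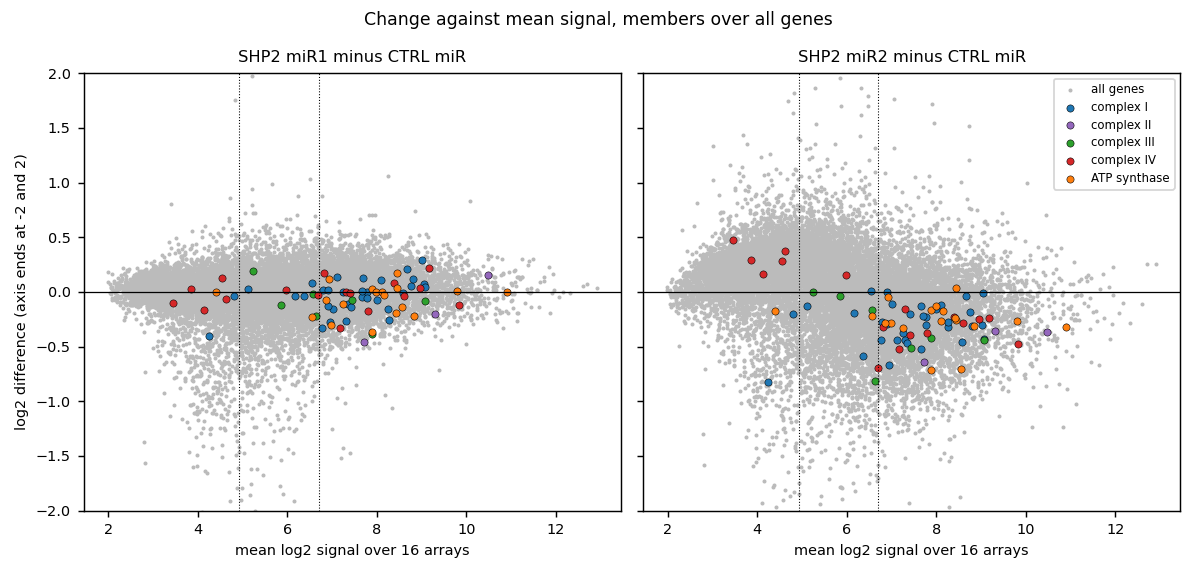
Log2 difference against the controls over the mean log2 signal of each gene, SHP2 miR1 on the left and SHP2 miR2 on the right. Grey points are all genes, coloured points the 78 members, and dotted lines divide the genes into 3 classes at 4.93 and 6.71. With miR2 the bright genes run below 0 and the dim genes above it, and the members follow with a median of -0.27.

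Other measures moved with the members. The median deviation of all genes in the brightest class was -0.22, -0.041 and -0.26 in miR2 tumours 1, 2 and 3, next to -0.22, -0.093 and -0.31 for the members. A score of 21 fibroblast, endothelial and macrophage markers was 0.35, 0.13 and 0.27 in the miR2 tumours, -0.065 to 0.12 in the miR1 tumours and -0.26 to 0.076 in the controls, so every miR2 tumour lay above every other tumour. With miR2, 5 of 8 macrophage markers rose, 5 of 7 fibroblast, 1 of 6 endothelial and 1 of 6 adipocyte markers. Of all genes 11.8% rose, and of the dimmest and middle classes 16.1% and 14.8%. After quantile normalization the marker counts were 5, 3, 0 and 1 in the same order, against 11.3% of all genes. The macrophage markers had a mean signal of 4.41 to 4.69 with miR1, 4.65 to 5.03 with miR2 and 4.20 to 4.62 in the controls, and the fibroblast markers 5.23 to 5.48, 5.54 to 5.67 and 4.97 to 5.35 in the same groups. With the score as a covariate 0 members fell with miR2 in limma (0.609% of all genes did, and the members' median was -0.056), and 3 were lower at an unadjusted p below 0.05. Since human probes were used on tumours grown in mice, the score is not a measure of host cell content. The part of host cells and of the array values in the members' falls was not tested.

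**Figure D5:**
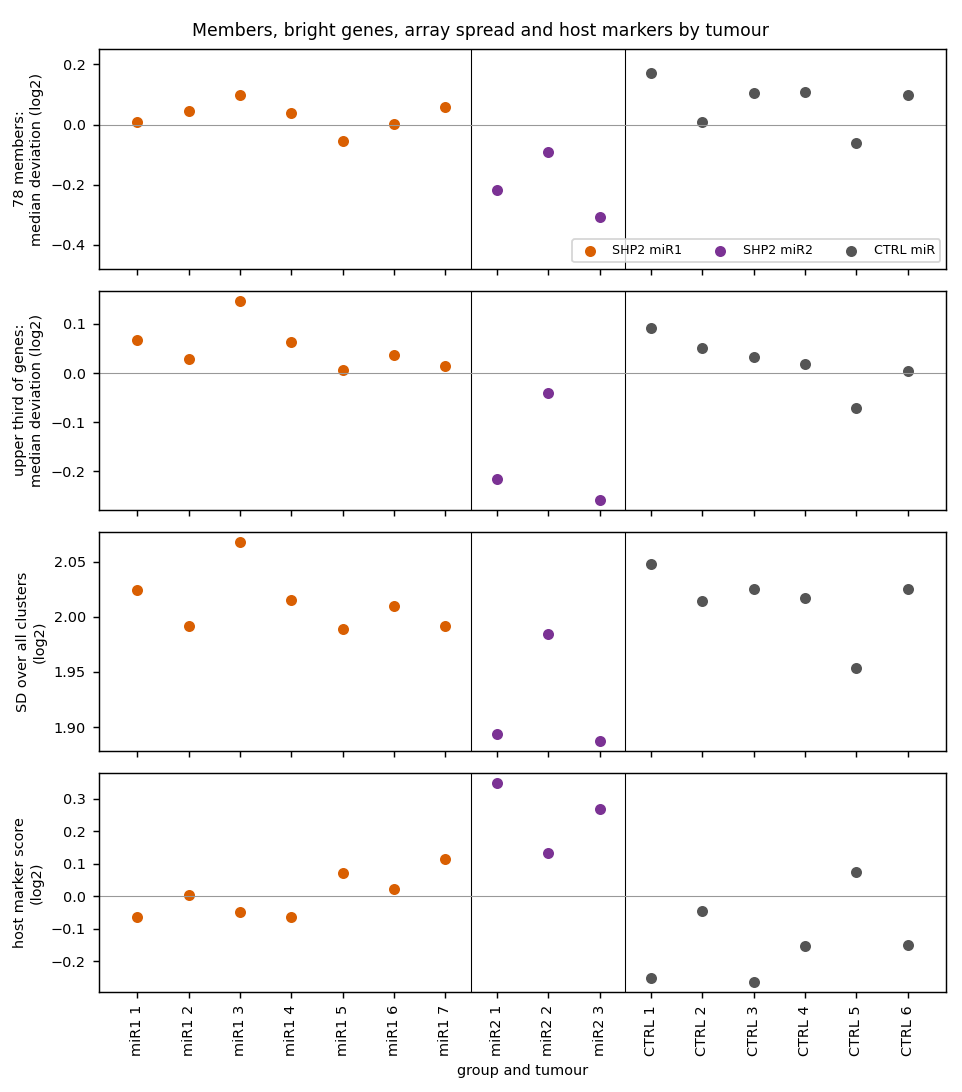
Values for every tumour in 4 panels, with SHP2 miR1 first, then SHP2 miR2 and CTRL miR: the members' median deviation, that of the brightest class of genes, the SD over all clusters of the array and the host marker score. Tumours 1 and 3 of miR2 are the lowest in the first 3 panels and the highest in the last, and miR2 tumour 2 lies nearer the other tumours.

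Genes that build and supply the complexes were counted in the same way. With miR2, 10 of 15 complex I assembly factors fell, 4 of 9 for complexes II and III, 10 of 19 for complex IV and 2 of 4 for ATP synthase, and none rose. Over these and the 5 further mitochondrial lists described next, 70 of 119 genes fell (58.8%), against 18.2% of all genes, and among their 86 genes in the brightest class 53 fell (61.6%), against 31.6% of that class. After quantile normalization 55 of the 119 fell (46.2%), against 15.2% of all genes. The lists were chosen with results of these data known, and no test sets them against other genes. SCO1, which delivers copper to complex IV, had 6.96, 7.49 and 6.93 in the miR2 tumours, 7.75 to 8.16 with a median of 7.79 in the miR1 tumours and 7.76 to 8.07 with a median of 7.94 in the controls. All miR2 tumours lay below all others, and the change was -0.78 ± 0.13 (adjusted p = 0.000279). COA7, another complex IV assembly factor, changed by -0.95 ± 0.12 (adjusted p = 2.08e-05). ATPAF1, a chaperone of F1, had -0.85 ± 0.22 (adjusted p = 0.00883).

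Of the electron carriers and enzymes that feed ubiquinone 9 of 18 fell with miR2. PDSS1, which makes the tail of ubiquinone, changed by -1.14 ± 0.21 (adjusted p = 0.000823) and DHODH, which feeds electrons from pyrimidine synthesis, by -0.41 ± 0.096 (adjusted p = 0.00451). The tricarboxylic acid cycle had 9 falls of 14, with MDH2, malate dehydrogenase, at 9.61, 9.66 and 9.67 in the miR2 tumours, 10.01 to 10.28 with a median of 10.20 in the miR1 tumours and 10.04 to 10.23 with a median of 10.10 in the controls. All miR2 tumours lay below all others (-0.47 ± 0.088, adjusted p = 0.000925). Of the phosphate and nucleotide carriers 4 of 6 fell, among them VDAC2 (-0.62 ± 0.14, adjusted p = 0.00414).

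The list of protein import and cristae genes had 14 falls of 18 and a median of -0.57, the lowest of the 9 mitochondrial lists, and 12 falls after quantile normalization. PHB2, a prohibitin of the inner membrane, had 7.88, 7.78 and 7.42 in the miR2 tumours, 8.15 to 8.70 with a median of 8.42 in the miR1 tumours and 8.36 to 8.56 with a median of 8.47 in the controls. All miR2 tumours lay below all others (-0.78 ± 0.13, adjusted p = 0.000304). Of the genes for mitochondrial transcription and biogenesis 8 of 16 fell, including TWNK, the mitochondrial DNA helicase (-1.09 ± 0.16, adjusted p = 9.28e-05), TFAM, which packages and transcribes mitochondrial DNA (-0.77 ± 0.18, adjusted p = 0.00418), and TFB2M (-0.54 ± 0.12, adjusted p = 0.00333). The regulators PPARGC1A and NRF1 had -0.041 and -0.017 and did not pass (adjusted p = 0.839 and 0.891).

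With miR1, 0 of the 119 genes of the same lists rose (1.38% of all genes did) and 3 fell (2.52%, against 3.38% of all genes). They were TIMMDC1, a complex I assembly factor (-0.44 ± 0.091, adjusted p = 0.0132), VDAC2 (-0.40 ± 0.11, adjusted p = 0.0442) and SDHAF3, a complex II assembly factor (-1.14 ± 0.28, adjusted p = 0.0238). SDHAF3 had 3.04, 2.92 and 2.76 in the miR2 tumours, 2.72 to 3.15 with a median of 2.98 in the miR1 tumours and 2.72 to 4.82 with a median of 4.60 in the controls. Its controls split like those of IRS4, with 2.72 and 3.08 in tumours 2 and 5, and against these alone the difference was 0.063 with miR1 and 0.0026 with miR2.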

How the data were processed

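Total RNA of 16 tumours was measured on Affymetrix HuGene arrays, 1 array per tumour, and groups follow the labels. The authors deposited 1 log2 value for each transcript cluster on each array, and that scale is inferred from the values (1.54 to 13.63). R 2.10 and oligo 1.8 are named in the submitters' processing notes. How the arrays were background-corrected or normalized is not given in the sources used here.

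From 28869 clusters, the 19310 listed with 1 symbol were used, with the highest-mean cluster for each of 685 genes that had several, which left 18377 genes. Groups were compared with limma 3.58.1 (R 4.3.3) in 1 linear model of all 3 groups with moderated variances and 13 residual degrees of freedom, with Benjamini-Hochberg adjustment over all genes. The fit was also run on simulated independent values without compression, array sets or a split of the controls, so that run does not bear on these. Depth is not defined for arrays, and the number of arrays, 3 for miR2, limits the precision. Plots used matplotlib 3.10.9.

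The members, lists and settings were chosen with earlier results of these data known. Named by rule are PTPN11, the 6 largest falls and 4 largest rises among members in each comparison, the SDH genes, the tissue-restricted COX isoforms with their partners, IRS4, HOXD10 and up to 4 genes of each list by adjusted p. Other members named were chosen after their values were seen. Alternatives were quantile normalization, centring on array medians, leaving out the dimmest 1 in 3 genes, all clusters, the mean of a gene's clusters, weights for each array, an intensity trend (robust prior), a block for the replicate number, the array set as a block or alone, a host marker score as a covariate, controls 2 and 5 alone, only the groups compared, and leaving out each tumour. The array sets and the split of the controls were read from the expression values, since the labels give no batch.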

Additional observations from a re-analysis of the deposited data

Results flagged for a closer look

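In 9 of the 158 groups of values tested (5.70%), 1 tumour lay far from the others of its group, and chance marks about 1 in 20 groups in this way. All 9 are groups of member values. With SHP2 miR1, tumour 5 was far below the others for ATP5IF1 (6.20), ATP5MC1 (8.2) and COX6B1 (8.46), tumour 1 for NDUFA8 (7.49), and tumour 3 was far above for COX7B (7.28). Among the controls, tumour 5 was far below for COX5B (6.25) and NDUFS1 (8.2), and tumour 1 was far above for NDUFA11 (7.04) and NDUFB5 (8.49). The 3 miR2 tumours are too few for this comparison.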

How the results depend on the processing

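Of the changes of members and named genes under the settings other than leaving out 1 tumour, 5983 kept their sign and their side of the threshold, 532 lost a call, 212 gained one, 25 that were called changed sign, and 429 that were not called changed sign without passing. With the host score the sign changed for 30 of 78 members with miR2, called or not. Leaving out 1 tumour changed the sign of no called value and of 230 that were not called. The number of arrays and their compression in miR2 tumours 1 and 3 limit what can be read from the counts.

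For miR1 against the controls the count of lower members (1) was 2 after quantile normalization, without the dimmest 1 in 3 genes and with an intensity trend, 15 with array weights, 3 with the array set as a block and 0 in set A, in set B, with the host score or against controls 2 and 5, where the median was 0.081. The 15 are 19.2%, against 11.2% of all genes, and in the other settings named at most 3.99% of all genes fell. The count of higher members (0) was 1 with the array set as a block or the host score (1.28%, against 2.68% and 0.539% of all genes). For miR2 against the controls the count of lower members (28) was 13 after quantile normalization, 44 with array weights, 14 in set B, 0 with the host score, 1 against controls 2 and 5 and 16 with only the groups compared. The 44 are 56.4%, against 25.1% of all genes, and the 16 are 20.5%, against 12.2%. The median (-0.27) was -0.14 after quantile normalization, -0.056 with the host score and -0.14 against controls 2 and 5. The count of higher members (1) was 0 after quantile normalization, with an intensity trend, in set B and with the host score. It was also 0 against controls 2 and 5 or with only the groups compared, and 2 when centred or with array weights (2.56%, against 15.4% and 23.2% of all genes). The 0 without the dimmest genes was fixed in advance, since COX7A1 is among the genes left out. For miR1 against miR2 the count of higher members (22) was 7 after quantile normalization, 10 with the set as a block, 1 in set B and 0 with the host score, and the median (0.20) was 0.058 after quantile normalization and 0.088 with the host score. The 10 are 12.8%, against 10.4% of all genes. The count of lower members (1) was 0 after quantile normalization, with the set as a block or in set B. It was 3 with array weights (3.85%, against 17.8% of all genes). It was 2 with controls 2 and 5 or only the groups compared (2.56%, against 10.8% and 11.9%). The 0 without the dimmest genes was again fixed, since COX4I2 is left out there. The cause of the other changes was not tested.

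Leaving out each tumour in turn gave 0 to 7 members lower with miR1, with 6 and 7 without control tumours 2 and 5, 0 to 4 higher and 8 to 38 lower with miR2, and 3 to 29 higher and 0 to 3 lower for miR1 against miR2, with medians of 0.18 to 0.28 for the last. The 8 and the 3 came without miR2 tumour 3. The 38 (48.7%, against 22.4% of all genes) came without control tumour 5, and the 29 (37.2%, against 18.1%) without miR2 tumour 2. With miR2, the fit without control tumour 1, 3, 4 or 6, miR1 tumour 1, or miR2 tumour 1 or 3 left no member higher.

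The labels do not say whether replicate numbers pair the samples. Deviations of tumours with the same number correlated at 0.21 to 0.37 for 5 numbers and at -0.30 for number 4 between miR1 and the controls, and at -0.17, 0.022 and -0.21 between miR2 and the controls. Between miR1 and the controls, tumours of the same number share an array set except for number 4. These correlations therefore cannot show or exclude pairing. With the number as a replicate block, 2 members were lower with miR1 (2.56%, against 2.74% of all genes). With miR2, 31 were lower (39.7%, against 20.7%) and 3 higher (3.85%, against 18.7%). For miR1 against miR2, 27 were higher (34.6%, against 19.3%) and 4 lower (5.13%, against 17.6%). The members called partly differ from those called without the block. The block shared 0 calls with the fit without it for miR1 (SDHD and UQCR10 passed and ATP5MG did not), 22 of the 28 falls with miR2 and 0 of the rises (COX4I2, COX6B2 and COX7B2 passed and COX7A1 did not), and 18 of the 22 higher with miR1 than with miR2.

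With the host score as a covariate, these called miR2 changes reversed: ATPAF1 0.16, ATPAF2 0.22, CD68 -0.037, COQ8A 0.041, COX7B 0.19, COX7C 0.10, CYC1 0.094, DCN -0.040, HOXD10 0.39, IRS4 0.43, ITGAM -0.056, MYL1 -0.064, NDUFB6 0.27, NDUFB8 0.015, PDHB 0.32, PPRC1 0.12, SDHAF3 0.18, SLC25A3 0.0064, TOMM70 0.058, UQCRC1 0.18, UQCRH 0.077 and VWF -0.072. The score holds CD68, DCN, ITGAM and VWF themselves, and it lay higher in every miR2 tumour than in any other. Against controls 2 and 5 alone, IRS4 (0.028) and SDHAF3 (0.063) reversed with miR1 and SDHAF3 (0.0026) with miR2.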
